A study of Mus musculus with 4 samples.

Results

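The 35 genes described here mark the endothelium of the liver sinusoids and of blood vessels, and were chosen as a list of gene symbols. All 35 were found among the 46603 genes of the count table, each in 1 row, and all passed the filter on low counts that left 13001 genes for testing. Their RNA was measured in whole liver of 4 male mice on the C57BL/6 J background, all carrying floxed HuR alleles. All were fed a Western diet with fructose and glucose in the drinking water (WDSW) for 4 weeks. The paper states that its animal studies used mice of both sexes. Control mice 1 and 2 received AAV8-TBGP-GFP by injection. Mice 3 and 4, labelled HuR hKO, received AAV8-TBGP-Cre, in which the thyroxine-binding globulin promoter directs Cre recombinase to hepatocytes. The labels therefore place the deletion in hepatocytes and leave the endothelial cells with intact HuR, so the comparison asks how genes of a neighbouring cell type stood in livers labelled as lacking HuR in hepatocytes.

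Liver sinusoidal endothelial cells line the sinusoids, carry open pores instead of a closed wall, and clear waste macromolecules from blood through scavenger and lectin receptors. They also send signals to hepatocytes, among them bone morphogenetic proteins that set hepcidin and Wnt ligands that set pericentral gene expression. Vessels with a continuous wall share with them the receptors for vascular growth factors, junction proteins and the ETS family transcription factors that hold endothelial identity.

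The libraries held between 13032095 and 19715577 counts, and edgeR's TMM scaling factors ran from 0.957 to 1.04. Levels are given as CPM, the counts of a gene per 1000000 counts of the scaled library size, or as CPM per kilobase of exon where genes are compared with each other. Elavl1, which encodes HuR, had 377 and 347 counts in the control mice and 541 and 648 in the mice labelled HuR hKO, which is higher by 0.41 on the log2 scale (SE 0.14, adjusted p = 0.545 with edgeR). Its levels were 28.4 and 25.9 CPM against 37.7 and 34.4, so mice 3 and 4 both stood above both controls (unadjusted p = 0.016 with edgeR). The paper reports that HuR mRNA and HuR protein fell significantly in livers of its HuR hKO mice. It also reports loss of HuR from hepatocytes by immunofluorescence. For the mRNA, the counts here run the opposite way. Which exons the floxed alleles remove is not given in the sources used here, so these counts do not check the label. Pecam1, Cdh5, Stab2, Clec4g and Lyve1, which define these cells, had counts in every library, although counts from whole liver do not show which cells they came from. Some members are also used by other liver cells, Mrc1 and Fcgr2b by macrophages, Aqp1 by cholangiocytes and Nrp1 by several cell types. In whole liver, fewer cells of a type and less RNA per cell cannot be told apart.

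Of the 35 members, 22 had a promoter in the RefSeq table of GRCm38.p6, and the 250 bases before the start of 4 of them are shown because they span the range seen for the letters bound by ETS factors, the family of the member Erg. Capitals mark each match to CCGGAA or AGGAAG, read on both strands, and every sequence runs 5′ to 3′ on the strand of its gene. Clec4g holds 3 matches, of which 2 overlap each other, Flt1 and Eng hold 2 each, and Cldn5 holds 0.
Clec4g promoter, chr8:3720652-3720901, minus strand: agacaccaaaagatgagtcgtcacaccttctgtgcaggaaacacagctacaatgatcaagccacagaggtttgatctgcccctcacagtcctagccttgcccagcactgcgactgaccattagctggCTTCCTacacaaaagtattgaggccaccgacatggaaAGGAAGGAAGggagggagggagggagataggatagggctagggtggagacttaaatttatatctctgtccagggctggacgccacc
Flt1 promoter, chr5:147726012-147726261, minus strand: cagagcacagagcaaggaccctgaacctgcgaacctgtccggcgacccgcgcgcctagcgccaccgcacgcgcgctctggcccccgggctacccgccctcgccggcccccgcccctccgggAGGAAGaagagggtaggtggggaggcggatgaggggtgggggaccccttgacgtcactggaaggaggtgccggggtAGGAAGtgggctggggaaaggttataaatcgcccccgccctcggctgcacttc
Eng promoter, chr2:32646345-32646594, plus strand: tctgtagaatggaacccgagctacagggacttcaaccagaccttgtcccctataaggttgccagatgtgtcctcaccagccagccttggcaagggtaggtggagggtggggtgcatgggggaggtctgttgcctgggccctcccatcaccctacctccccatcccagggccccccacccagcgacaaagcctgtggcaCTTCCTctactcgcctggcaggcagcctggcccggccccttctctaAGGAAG
Cldn5 promoter, chr16:18776597-18776846, plus strand: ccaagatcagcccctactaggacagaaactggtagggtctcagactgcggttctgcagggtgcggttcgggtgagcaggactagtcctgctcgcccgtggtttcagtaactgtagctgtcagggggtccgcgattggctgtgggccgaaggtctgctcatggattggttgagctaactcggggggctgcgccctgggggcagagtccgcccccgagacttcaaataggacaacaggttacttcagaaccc
Over all 32851 promoter windows of this length 38.2% held either run of letters, against 53.8% of the 26 windows of members, some of which belong to the same gene. AGGAAG was in 50% of the members' windows and in 29.5% of all windows, while CCGGAA was in 3.85% and 12.0%. In all, 13 members held at least 1 match. A match is a run of letters and not a measured site.

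The levels per length ran over a wide range (plot of levels per length). Exon length is the union of all annotated exons of a gene. It can exceed the length of the expressed transcript, which lowers the level per length. Aqp1, a water channel, was the highest at 34.5 CPM per kilobase over the 4 livers, followed by Clec4g at 21.2, Eng at 17.4 and Dnase1l3 at 11.1. The lowest were Wnt9b at 0.361, Emcn at 0.478, Vwf at 0.618 and Bmp6 at 0.706. Aqp1 was above Clec4g in each mouse, and Clec4g was above Eng in each mouse. Vwf, which is carried by larger vessels, and Emcn, a surface sialomucin, lay well below the scavenger receptors, whose lowest member Lyve1 stood at 2.69. Further down the order neighbours were not separate, for example Nrp1, Oit3, Egfl7 and Ehd3, which stood between 8.18 and 9.43 and changed places from mouse to mouse.

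**Figure D1:**
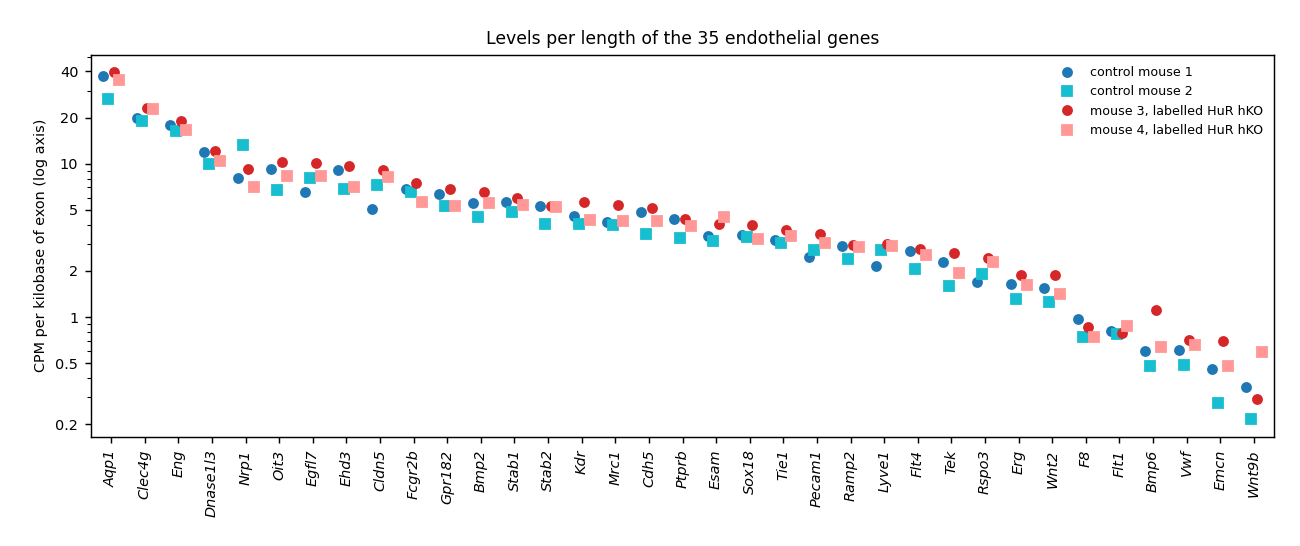
CPM per kilobase of exon (vertical log axis) of the 35 members (horizontal axis, from the highest to the lowest over all livers), with 1 point for each of the 4 mice. Aqp1 leads at 34.5 and Wnt9b is last at 0.361.

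In the comparison of the 2 mice labelled HuR hKO with the 2 control mice, 32 of the 35 members were fitted above control, against 50.3% of all genes tested, and 3 were below. The median of their log2 fold changes was 0.21, and that of all genes was 0.00197. No member had an adjusted p-value under 0.05 in edgeR's quasi-likelihood test, where the smallest was 0.653, and over all genes 3, or 0.0231%, did. The DESeq2, limma-voom and edgeR exact tests also gave 0 members, where 85, 2 and 120 of all genes passed. At an unadjusted p-value under 0.05 stood 1 member, Cldn5, against 7.43% of all genes, and it was higher, against 4.04% of all genes. No member was lower at that threshold, against 3.39% of all genes, and 0 members also reached a fold of 1.8, against 2.12%. The level in both mice labelled HuR hKO was above both controls for 13 members, against 19.3% of all genes, and below both controls for 0, against 18.8%. The p-values rest on the spread between these mice alone, and the spread of each gene was estimated with help from that of all genes tested. An exact permutation of 2 mice against 2 could not go below 0.333.

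The individual livers differed along a shared pattern (plot of each member by mouse). Mouse 3 was the highest of the 4 for 28 members, and control mouse 2 the lowest for 26. Over all genes tested, mouse 3 was the highest for 22.3% and mouse 2 the lowest for 24.1%. The summed level of the members was 957 CPM in mouse 1, 876 in mouse 2, 1067 in mouse 3 and 915 in mouse 4, so the level of mouse 4 lay between the 2 controls. Within the controls, 29 members were higher in mouse 1 than in mouse 2, with a median log2 ratio of 0.27, and 32 were higher in mouse 3 than in mouse 4, with a median of 0.20. These differences between mice with the same label were of about the size of the median difference between the groups. Over all genes 50.4% were higher in mouse 1 than in mouse 2, and 50.5% in mouse 3 than in mouse 4.

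**Figure D2:**
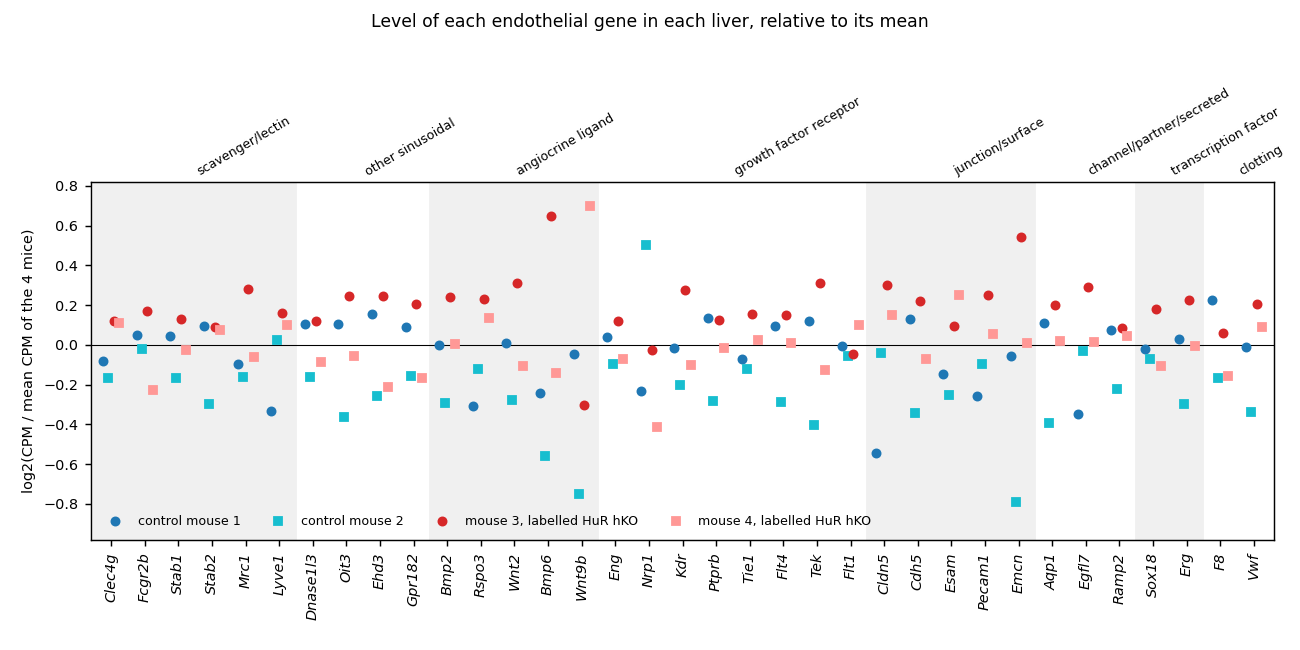
Level of each member in each liver as log2 of its CPM over the mean CPM of the 4 mice (vertical axis), with the members grouped by role (horizontal axis, shaded blocks) and 1 point for each mouse. Mouse 3 is the highest point for 28 members and control mouse 2 the lowest for 26, while Nrp1 has its highest point in control mouse 2.

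Leaving out either of those 2 livers took away much of the difference (plot of fold changes with each mouse left out). For most members mouse 2 was the lower control and mouse 3 the higher of the mice labelled HuR hKO. A smaller difference without either of them, and a larger one without mouse 1 or mouse 4, follows from that order. Without control mouse 2, 22 members were fitted above control and their median was 0.06 on the log2 scale, and without mouse 3 the count was 23 and the median 0.10. Without control mouse 1 it was 33 members with a median of 0.28, and without mouse 4 it was 33 with a median of 0.30. The median over all genes lay between -0.03 and 0.01 in the same 4 fits. The sign held with each mouse left out for 17 members, and the remaining 18 had the opposite sign in at least 1 of these fits.

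**Figure D3:**
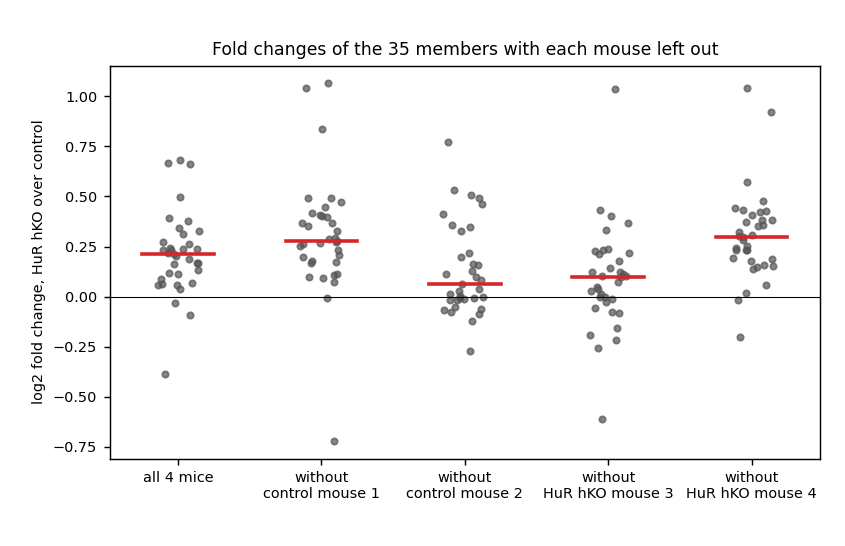
Log2 fold change of the mice labelled HuR hKO over control (vertical axis) for the 35 members, 1 point each, with all 4 mice and after dropping each single mouse (horizontal axis), and the median as a red bar. The medians are 0.21, 0.28, 0.06, 0.10 and 0.30 from left to right.

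The scavenger and lectin receptors, which define the sinusoidal cells, gave small differences. Their 6 members had log2 fold changes from -0.03 to 0.27, 5 of them above control and 0 with an unadjusted p-value under 0.05. Clec4g, a C-type lectin of sinusoidal cells on chromosome 8 (GRCm38, 3707064 to 3720651, minus strand), had 654 and 622 counts in the control mice and 811 and 1061 in the mice labelled HuR hKO. Its level was 47.8 ± 1.97 CPM (SD, n = 2) in controls and 56.5 ± 0.177 (SD, n = 2) in the other group, so the groups did not overlap and the mice within each group lay close together. Its log2 fold change was 0.24 (SE 0.12, adjusted p = 0.707 with edgeR), and it kept between 0.20 and 0.27 whichever mouse was left out. Fcgr2b, the inhibitory Fc receptor with which these cells take up small immune complexes, had 526, 505, 617 and 616 counts in mice 1 to 4, or 39.6, 37.7, 43.0 and 32.7 CPM. The mice labelled HuR hKO were thus the highest and the lowest, and its log2 fold change was -0.03 (SE 0.16). The hyaluronan scavengers Stab1 and Stab2 had log2 fold changes of 0.11 and 0.17 with groups that overlapped, and Lyve1, a hyaluronan receptor, and Mrc1, the mannose receptor, had 0.27 and 0.24 with groups that did not. Lyve1 ran from 0.10 without mouse 1 to 0.46 without mouse 2, and Mrc1 from 0.05 without mouse 3 to 0.41 without mouse 4.

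The other sinusoidal genes had the lowest median of the roles. All 4 were fitted above control, the median of their log2 fold changes was 0.06, and the groups overlapped in each case. Dnase1l3, a secreted nuclease that clears DNA from blood, had 816 and 684 counts in the control mice and 888 and 1013 in the mice labelled HuR hKO, or 61.4, 51.1, 61.9 and 53.8 CPM. Each group held 1 higher and 1 lower liver at like levels, the difference between groups was 0.04 on the log2 scale (SE 0.15), and it was negative without mouse 2 or without mouse 3. Ehd3, a trafficking protein of the fenestrated endothelium, and Gpr182, an atypical chemokine receptor, had log2 fold changes of 0.07 and 0.06, and Oit3 had 0.21.

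The angiocrine ligands had the highest median of the roles, and 3 of them had low counts. All 5 were fitted above control, with a median of 0.39 on the log2 scale and none with an unadjusted p-value under 0.05. Bmp2, a bone morphogenetic protein that induces hepcidin in hepatocytes, had 261 and 215 counts in the control mice and 333 and 371 in the mice labelled HuR hKO. Its levels were 19.64 and 16.1 CPM against 23.2 and 19.70, so mouse 4 stood just above control mouse 1, and the log2 fold change was 0.26 (SE 0.17). Bmp6, the other endothelial hepcidin inducer, had 31, 25, 62 and 47 counts in mice 1 to 4, or 2.33, 1.87, 4.33 and 2.50 CPM. The groups did not overlap, but mouse 4 lay close to control mouse 1, the log2 fold change was 0.68 (SE 0.37, adjusted p = 0.719 with edgeR), and without mouse 3 it was 0.23. In the annotation, 224 bases of Bmp6 exons are shared with the opposite-strand gene Txndc5, which had 11521 counts over the 4 mice. Whether the counting used strand is not stated, so some of the Bmp6 counts could belong to Txndc5.

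The Wnt ligands and R-spondin of the central vein stood as follows. Wnt2 had 46 and 38 counts in the control mice and 61 and 60 in the mice labelled HuR hKO, or 3.46, 2.84, 4.26 and 3.19 CPM, with groups that overlapped and a log2 fold change of 0.23 (SE 0.30). Wnt9b, which with Wnt2 maintains pericentral zonation, had 21, 13, 19 and 50 counts in mice 1 to 4. Only mouse 4 was above the control range, at 2.65 CPM (95% exact Poisson interval 1.97 to 3.5, counting error only), against 1.33 CPM in mouse 3 (0.798 to 2.07). The log2 fold change of Wnt9b was 0.66 (SE 0.48), and without mouse 4 it was 0.06. Wnt9b was one of 3 members lower in mouse 3 than in mouse 4, with Flt1 and Esam. Rspo3, which enhances Wnt signalling by protecting its receptors, had 69 and 79 counts in the control mice and 108 and 133 in the mice labelled HuR hKO, or 5.55 ± 0.499 against 7.30 ± 0.335 CPM (SD, n = 2 each). Its groups did not overlap, its log2 fold change was 0.39 (SE 0.21, adjusted p = 0.713 with edgeR), and it stayed between 0.29 and 0.49 with each mouse left out. In the annotation, 404 bases of Rspo3 exons are shared with the opposite-strand gene Gm48159, for which no counts were available. The counts of Rspo3 are thus uncertain too.

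Among the growth factor receptors 7 of 8 were fitted above control, with a median log2 fold change of 0.14. Eng, a coreceptor for bone morphogenetic proteins that circulate in blood, had 963, 883, 1099 and 1267 counts in mice 1 to 4, or 72.5, 65.9, 76.7 and 67.3 CPM. The groups overlapped, and the log2 fold change was 0.06 (SE 0.13). Nrp1, a coreceptor for vascular endothelial growth factor (VEGF) and semaphorins, on chromosome 8 (128358604 to 128503363, plus strand), was the member with the lowest fold change. It had 1043 and 1748 counts in the control mice and 1301 and 1305 in the mice labelled HuR hKO, or 78.5, 130.5, 90.8 and 69.3 CPM. Control mouse 2 stood far above the other 3 livers, in which the groups overlapped. The log2 fold change was -0.39 (SE 0.24, adjusted p = 0.760 with edgeR). It was 0.03 without control mouse 2 and -0.72 without control mouse 1. Nrp1 took 14.9% of the members' summed counts in mouse 2 and between 7.57% and 8.51% in the other 3, and without it the sums were 878, 745, 976 and 846 CPM in mice 1 to 4. That sum without Nrp1 was formed after its values were seen, as was one without Spp1 given with the marker lists. The VEGF receptors Kdr, Flt1 and Flt4 had log2 fold changes of 0.20, 0.06 and 0.16, and the angiopoietin receptor Tek, its partner Tie1 and the phosphatase Ptprb, which restrains Tek, had 0.22, 0.19 and 0.12. Of these 6, the groups were separate for Tie1 alone.

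The junction and surface proteins held the single member past the unadjusted threshold. All 5 were fitted above control and their median was 0.38 on the log2 scale. Both mice labelled HuR hKO were above both controls for 4, with Cdh5 the exception, against 19.3% of all genes. Cldn5, the claudin of endothelial tight junctions, lies on chromosome 16 (18776847 to 18778262, plus strand) and had 96 and 137 counts in the control mice and 186 and 220 in the mice labelled HuR hKO. Its levels were 7.225 and 10.2 CPM against 12.98 and 11.7, so both mice labelled HuR hKO were above both controls, although the controls differed from each other by 0.50 on the log2 scale. The log2 fold change was 0.50 (SE 0.21), with an unadjusted p of 0.0446 and an adjusted p of 0.653 in edgeR's test over all genes, and it lay between 0.25 without mouse 1 and 0.77 without mouse 2. Its unadjusted p was above 0.05 with upper quartile factors (0.0515), with library totals alone (0.0544), with 10 counts required in every library (0.0509) and in the DESeq2 Wald test (0.0979). It was also above 0.05 without mouse 1 (0.28), mouse 3 (0.18) or mouse 4 (0.073), and its adjusted p was at least 0.264 in every edgeR, limma-voom and DESeq2 setting. Emcn had 33, 20, 54 and 49 counts in mice 1 to 4, or 2.48, 1.49, 3.77 and 2.60 CPM. The groups were separate by the small step between mouse 1 and mouse 4, and the log2 fold change was 0.67 (SE 0.38, adjusted p = 0.733 with edgeR). Emcn ran from 0.35 without mouse 2 to 1.06 without mouse 1, where its adjusted p was 0.687. Esam and Pecam1, adhesion molecules at endothelial contacts, had log2 fold changes of 0.38 (SE 0.17) and 0.33 (SE 0.15), and Cdh5, the cadherin of these contacts, had 0.17 (SE 0.20).

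Aqp1, Ramp2 and Egfl7 were fitted above control with log2 fold changes of 0.23, 0.13 and 0.34. Aqp1 had 1300 and 923 counts in the control mice and 1493 and 1728 in the mice labelled HuR hKO, or 97.8, 68.9, 104.2 and 91.7 CPM. Mouse 4 lay under control mouse 1, and without control mouse 2 the log2 fold change was 0.0029. Egfl7, a secreted factor of vascular tube formation, had separate groups. In the annotation, Egfl7 exons share 264 bases with Gm20532 and 73 with Mir126a on the same strand, each with 0 counts. They also share 64 bases with the opposite-strand gene Agpat2, which had 16393 counts over the 4 mice. Exons of Ramp2, which partners the adrenomedullin receptor, share 1103 bases with Vps25 on the same strand. The counts of Egfl7 and Ramp2 are thus uncertain.

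The transcription factors Sox18 and Erg had log2 fold changes of 0.09 and 0.24 with groups that overlapped. Sox18, which drives vascular differentiation, had 74, 72, 92 and 99 counts in mice 1 to 4, or 5.57, 5.38, 6.42 and 5.26 CPM, so mouse 3 alone stood above the controls and the SE was 0.23. The clotting factors were of opposite sign. F8, coagulation factor VIII, which the liver makes in its endothelial cells, had 128, 98, 123 and 139 counts in mice 1 to 4, or 9.63, 7.32, 8.58 and 7.38 CPM. Both mice labelled HuR hKO lay within the control range, and the log2 fold change was -0.09 (SE 0.21). Vwf, the carrier of factor VIII in plasma, had a log2 fold change of 0.31 (SE 0.19) and groups that did not overlap.

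**Figure D4:**
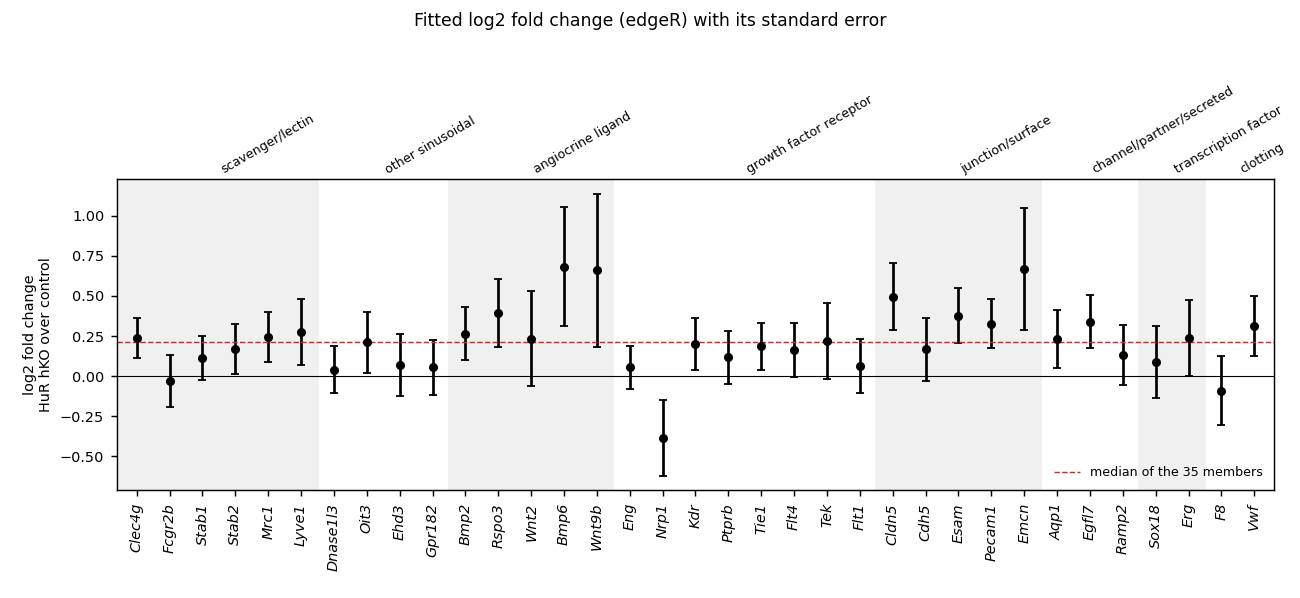
Fitted log2 fold change of the mice labelled HuR hKO over control with its standard error (vertical axis) for the 35 members grouped by role (horizontal axis, shaded blocks), from edgeR with 2 mice in each group. The dashed line is the median of 0.21, and Nrp1, F8 and Fcgr2b lie below 0.

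The difference between the group means on the log2 scale was larger than the gap between the mice of either group for 7 members, Clec4g, Rspo3, Tie1, Pecam1, Esam, Cldn5 and Egfl7. That is 20% of the members, against 25.6% of the 12955 genes tested with a count in every library. The member genes were measured in the same 4 livers and are not independent of each other.

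Genes that act with the members were read from lists of the same pathways. Of 14 ligands for endothelial receptors, 11 were tested, 7 were fitted above control and 0 had an unadjusted p-value under 0.05. Vegfa, the main ligand of Kdr, had 2075 and 1984 counts in the control mice and 2002 and 1847 in the mice labelled HuR hKO. Vegfa thus differed by -0.36 on the log2 scale (SE 0.18), with both of the latter mice below both controls in CPM. Gdf2, a ligand of the Eng receptor complex, had a log2 fold change of 0.23 (SE 0.20), and Angpt2, which opposes Tek signalling, had between 10 and 20 counts. Angpt1, which activates Tek, had between 5 and 9 counts and was not tested. Of 17 genes of the pathway from Bmp2 and Bmp6 to hepcidin, 3 were fitted above control and 14 below, with a median log2 fold change of -0.18. Hamp, the hepcidin gene, had 6137, 7941, 8902 and 4354 counts in mice 1 to 4, and the mice labelled HuR hKO took both the highest and the lowest level (log2 fold change -0.31, SE 0.38). The targets Id1, Smad6 and Smad7 had log2 fold changes of -0.22, 0.20 and -0.28, none with an unadjusted p-value under 0.05, and the coreceptor Neo1 had -0.40 (adjusted p = 0.636 with edgeR).

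Of 23 genes of the Wnt and R-spondin axis, 13 were fitted above control and 0 had an adjusted p-value under 0.05. At an unadjusted p-value under 0.05, 3 were higher, against 4.04% of all genes, and 2 were lower, against 3.39%. Glul, the pericentral glutamine synthetase, had 13608 and 16376 counts in the control mice and 21725 and 32661 in the mice labelled HuR hKO, a difference of 0.53 on the log2 scale (adjusted p = 0.526 with edgeR). Notum, a secreted Wnt inhibitor, had a log2 fold change of 0.50 with separate groups. Rhbg, an ammonia channel, had 1.34 (SE 0.49, adjusted p = 0.577 with edgeR) with groups that overlapped. Cyp2e1, Slc1a2, Oat and Cyp1a2, of the same list, had log2 fold changes of -0.17, -0.07, -0.04 and 0.09, each with groups that overlapped. The receptors Fzd7 and Fzd8 had log2 fold changes of -0.76 and -0.49, while the targets Axin2 and Lgr5 had 0.04 and -0.23 with groups that overlapped. In the Notch axis 4 of 10 genes tested were above control. Notch1 had 187 and 188 counts in the control mice and 290 and 354 in the mice labelled HuR hKO, a difference of 0.47 on the log2 scale (adjusted p = 0.510 with edgeR), and its ligand Dll4 differed by 0.17.

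A list of 36 other endothelial genes, none of them a member, gave a median close to that of the members. Of the 36, 32 were fitted above control, and the median log2 fold change was 0.22. Only 1, Tspan7 at 0.42, had an unadjusted p-value under 0.05, against 7.43% of all genes. Unlike the members' sum, their sum did not overlap between groups, at 400 and 385 CPM in control mice 1 and 2 and 466 and 431 in mice 3 and 4. Both mice labelled HuR hKO were above both controls for 18 and below both for 2, against 19.3% and 18.8% of all genes. Mouse 3 was the highest for 23 of the 36 and control mouse 2 the lowest for 19. The 36 genes were read in the same 4 livers and are not independent of the members. Their median with each mouse left out was not tested. In a list of 10 genes of the basement membrane and of capillary-type endothelium, 7 were above control with a median of 0.30. The sums of that list were 169 and 146 CPM in control mice 1 and 2 and 193 and 189 in mice 3 and 4. Col4a1, a basement membrane collagen, had 338 and 274 counts in the control mice and 495 and 587 in the mice labelled HuR hKO (log2 fold change 0.52, adjusted p = 0.480 with edgeR), and Plvap, the diaphragm protein of fenestrae, had 0.34 (adjusted p = 0.618 with edgeR). Cd34, a marker of capillary endothelium, had between 20 and 36 counts and a log2 fold change of -0.08. The flow-responsive genes Nos3 and Klf2 both had 0.11, and of that list 7 of 9 tested were above control.

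Markers of the other liver cells were read beside these values (plot of marker lists by mouse). The 12 Kupffer cell and macrophage markers summed to 266 and 267 CPM in the control mice and 299 and 288 in the mice labelled HuR hKO, with 9 of 12 above control. The 12 stellate cell markers summed to between 337.0 and 337.4 CPM in controls and between 358 and 397 in the others, with 10 of 12 above control. Erythroid transcripts summed to 363 and 450 CPM against 488 and 711, with all 5 above control. Of the 5, 3 (Hbb-bs, Hbb-bt and Alas2) had an unadjusted p-value under 0.05, against 7.43% of all genes. The 12 hepatocyte markers summed to between 75669 and 78644 CPM in controls and between 72308 and 81966 in the others, with 7 above control and mouse 3 the lowest. Smooth muscle markers were high in control mouse 1, at 62.2 CPM against 17.1 to 31.8 in the other livers, and cholangiocyte markers summed to 56.0 and 28.1 CPM in the control mice and 40.5 and 50.8 in the others. Most of that sum was Spp1, a secreted phosphoprotein, with 419, 299, 499 and 789 counts in mice 1 to 4 and a log2 fold change of 0.51 (adjusted p = 0.579 with edgeR). Without Spp1 the cholangiocyte sums were 24.5, 5.82, 5.72 and 8.92 CPM, so the order of the livers differed. Lymphatic markers ran from 107.4 to 169 CPM with overlapping groups, mostly through Prox1 and Reln, which other liver cells also express, mesothelial markers from 2.69 to 4.51, lymphocyte markers from 4.14 to 10.6 and neutrophil markers from 1.54 to 2.31. A count of 0 was found in at least 1 library for 2 neutrophil markers, 1 lymphocyte marker and 1 cholangiocyte marker, and for no member. The part of these cell types in the members' values was not tested.

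**Figure D5:**
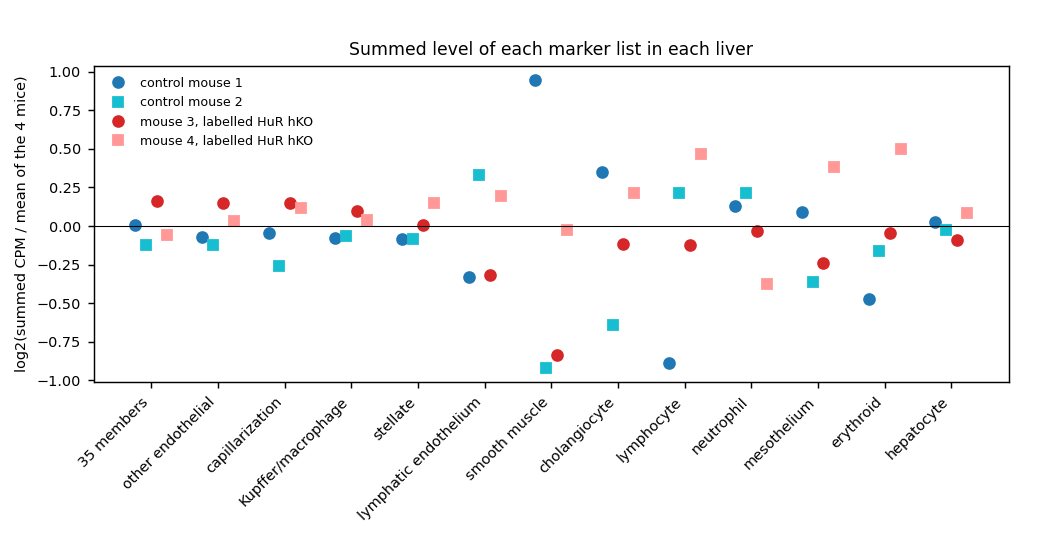
Summed CPM of the 35 members and of 12 lists of other endothelial genes and cell type markers (horizontal axis) as log2 of the sum over its mean in the 4 mice (vertical axis), with 1 point for each mouse. The members and the other endothelial genes are highest in mouse 3, smooth muscle markers in control mouse 1 and erythroid transcripts in mouse 4.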

How the data were processed

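Liver RNA of 4 mice was sequenced. The authors deposited gene counts as whole numbers without normalization, and the submitters' processing notes name RSEM and GRCm38. Whether the whole numbers are rounded RSEM estimates is not given in the sources used here, and they were treated as counts. The use of strand and the treatment of reads shared by several genes are not given in the sources used here, so counts of overlapping genes are uncertain. Beside Bmp6, Rspo3, Egfl7 and Ramp2, this covers Stab1, Gpr182 and Eng. Their exons share 112 bases with Nt5dc2, 74 with Zbtb39 and 61 with Fpgs, in that order, each on the opposite strand. Exons of Stab2, Clec4g and Fcgr2b share 141, 146 and 155 bases with opposite-strand genes that had at most 4 counts over the 4 mice. Column names gave the mouse of each column, and the number of columns with no mouse was 0. Symbols were found for 46005 of 46603 identifiers, exon lengths and coordinates come from the GENCODE annotation of GRCm38, and promoters from RefSeq.

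Counts were scaled with TMM factors and tested with edgeR 4.0.16 (R 4.3.3) by the quasi-likelihood test after its filter on low counts (minimum of 10), with p-values adjusted by Benjamini-Hochberg over 13001 genes. No 2 libraries were alike within sampling noise (chi-square per degree of freedom at least 23.04), so each library was 1 replicate. The alternatives were other scalings, filters and tests (DESeq2 1.42.0, limma 3.58.1 with voom, edgeR's exact test) and leaving out each mouse. The tests were tested on simulated data whose changes were larger than those fitted for the members with all 4 mice. That simulation therefore does not show how the tests treat differences as small as those of the members. A count of 0 would allow up to 3 counts, or 0.159 to 0.226 CPM, and intervals cover counting error only. Figures used matplotlib 3.10.9.

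The members and lists were chosen with earlier results of these data known. Counts in every mouse were given for members with an unadjusted p under 0.05, the 3 with the largest and the 3 with the smallest log2 fold change, the highest member per length of each role and all angiocrine ligands. Other genes were named from the lists where their unadjusted p was under 0.05 or they are a partner or target of a member. Genes named for their overlap with a member, list members named for their level, and Cyp2e1, Slc1a2, Oat and Cyp1a2 were chosen after their values were seen.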

Additional observations from a re-analysis of the deposited data

How the results depend on the processing

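The number of members fitted above control was 32 and no member had an adjusted p-value under 0.05 with other scaling factors, other filters and the DESeq2, limma-voom and edgeR exact tests. At an unadjusted p-value under 0.05, Cldn5 was lost and 0 members were higher with upper quartile factors and with library totals alone. The same held with at least 10 counts in every library and in the DESeq2 Wald test. Without a filter, 1 member was lower at that threshold, against 3.56% of all genes. This was Nrp1 (unadjusted p = 0.041 and adjusted p = 0.680 with edgeR). With each mouse left out in turn, the count of members higher at that threshold ran from 0 to 4, of members lower from 0 to 1 and of members that also reached a fold of 1.8 from 0 to 1. In the same 4 fits these thresholds were met by 1.93% to 5.49%, 2.25% to 5.19% and 1.93% to 3.73% of all genes. The adjusted p-value of a member was at least 0.238 under every setting. The lone mouse of a group was then assumed to vary like the other group.

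The sign of 18 members turned with 1 mouse left out, 12 of them without control mouse 2 and 9 without mouse 3, and no sign turned under the other settings. The lowest and highest log2 fold changes were as follows: Stab2 -0.011 to 0.37, Fcgr2b -0.26 to 0.16, Ehd3 -0.19 to 0.28, Oit3 -0.0025 to 0.45, Dnase1l3 -0.085 to 0.17, Gpr182 -0.16 to 0.23, Wnt2 -0.00044 to 0.43, Kdr -0.014 to 0.38, Flt1 -0.015 to 0.11, Flt4 -0.016 to 0.35, Nrp1 -0.72 to 0.028, Tek -0.026 to 0.49, Ptprb -0.075 to 0.33, Eng -0.058 to 0.15, Cdh5 -0.050 to 0.41, Ramp2 -0.0077 to 0.27, Sox18 -0.075 to 0.23 and F8 -0.27 to 0.11. The cause was not tested. No paired analysis was possible because the groups share no replicate numbers. With 2 mice in a group and as few as 13 counts of a member in a library, small differences could not be detected.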
